A study of Arabidopsis thaliana with 24 samples.

Results

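Roots of wild-type Arabidopsis thaliana were compared with shoots of the same age, using 6 of the 24 libraries of the series: WT roots replicates 1 to 3 and WT shoots replicates 1 to 3. WT plants were Col-0, the common laboratory accession, and both organs were taken at an age of 2 weeks from seedlings on MS medium under long days at 22 °C, the shoots being the aerial parts. The labels name no agent and no transgene, and do not say whether replicates came from separate cultures, so the spread between them may be technical. The libraries were strand-specific single-end RNA-seq of total RNA, deposited as FPKM, a transcript level scaled to transcript length and library size. All 34178 lines of the table were considered, and 20029 that named a gene and reached 1 FPKM in at least 3 of the 6 libraries were tested. The rest of the series served as context: WT inflorescences and siliques at 5 weeks from soil-grown plants, and the same 4 organs of clf-28, a mutant of the Polycomb methyltransferase gene CURLY LEAF.

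A root takes up water and mineral ions through epidermis and root hairs, and its endodermis seals the path between cells with the Casparian strip and with suberin before solutes are loaded into the xylem. A shoot holds the photosynthetic chloroplasts, gas exchange through stomata and the waxy cuticle, and it receives ions and cytokinins from the root while sending sugars and auxin down. The comparison therefore asks how far these known roles of the organs are visible in their transcripts, and how members of single gene families are shared out between them.

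In the 6 libraries, replicates 1 stood apart from the other replicates of their organ. Across the lines, Spearman's rho between root replicates was 0.937 and 0.934 for pairs with replicate 1 and 0.988 between replicates 2 and 3, and in shoots it was 0.970 and 0.969 against 0.988. In WT roots replicate 1, 958 tested lines lay more than 2-fold above both other root libraries and 390 lay below them, on the scale of log2(FPKM + 1). Lines of the chloroplast genome summed to 6740 FPKM there and to 111 and 137 FPKM in the other root libraries, against 1400 to 4500 FPKM in shoots. Each library's FPKM values added up to between 849519 and 1123011 in roots and between 1263718 and 1303908 in shoots. These sums are no measure of depth, which is unknown. Nuclear photosystem transcripts made up 0.129% to 0.176% of the sum in roots and 13.7% to 15.6% in shoots. Of 11 flower and seed markers only SEP3 reached the level for testing, at 0, 1.52 and 1.18 FPKM in roots and 11.5, 6.31 and 4.56 FPKM in shoots. The other 10 stayed below it. Values without a replicate 1 library are given beside many of the results.

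Most of the transcriptome differed between the organs. Of the 20029 lines tested, 12423 (62.0%) passed the test, 7158 (35.7%) higher in roots and 5265 (26.3%) higher in shoots. At least 4-fold differences were found for 1764 lines (8.81%) higher in roots and 1999 (9.98%) higher in shoots. The split by direction depends on the scaling: when each library was rescaled to 1 sum over nuclear lines, the median of all lines moved from 0.16 to 0.57 on the log2 scale. Then 74.2% of the calls were higher in roots, against 57.6% on the deposited scaling and 48.2% after median-of-ratios scaling. Small differences are therefore read against that shift, and large ones lie far outside it. In the text below, a log2 difference is roots minus shoots of log2(FPKM + 1) with ± its standard error over 3 libraries against 3. The adjusted p comes from limma with Benjamini-Hochberg adjustment over all lines tested. A gene under 1 FPKM in every library of 1 organ entered the test only through the other organ. Its difference is a description, as for RHD6, RSL4, EXPA7, PLT1, PLT2, GL3, CER4, ANR1, AGL21, AGL14, TFL1 and THAS1 on the root side. On the shoot side this holds for GLK1, FIL, STM, TMM, SPCH, FMA, MUTE, FT, ESP and AT4G22485, among others. Such genes are part of the list counts. Counts of list members are to be read against the 35.7% of all lines higher in roots and the 26.3% higher in shoots. Groups without overlap were common too, with roots above shoots in 42.4% of all lines and shoots above roots in 29.2%.

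**Figure D1:**
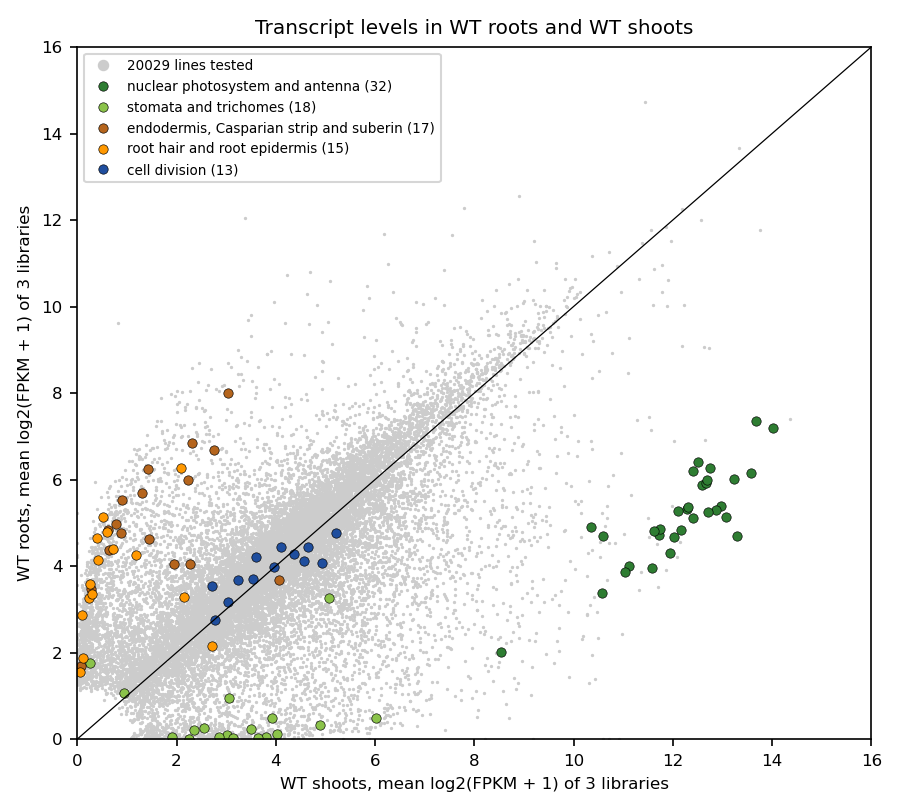
Each grey point is 1 of the 20029 lines tested, with its mean log2(FPKM + 1) over 3 WT shoots libraries on the x axis and over 3 WT roots libraries on the y axis; the line marks equal levels. The 32 photosystem and antenna genes lie far below the line, the root hair and endodermis genes mostly above it, and the 13 cell division genes along it.

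Root hair genes were high in roots and near 0 in shoots. Of 15 members tested, 14 were higher in roots, against 35.7% of all lines, and 1 did not pass. The median log2 difference was 3.08 against 0.16 for all lines. RHD6 (AT1G66470), the bHLH factor that starts hair outgrowth, stood at 7.22, 10.2 and 8.43 FPKM in roots and 0.0511, 0.113 and 0.372 FPKM in shoots (log2 difference 3.03 ± 0.17, adjusted p = 2.33e-05). Its target RSL4 (AT1G27740), which sets hair length, stood at 8.22, 9.6 and 9.76 FPKM in roots and 0.105, 0.134 and 0.454 FPKM in shoots (log2 difference 3.06 ± 0.15, adjusted p = 1.38e-05). The hair-specific expansin EXPA7 (AT1G12560) was measured at 38.5, 34.8 and 29.3 FPKM in roots and 0.124, 0.366 and 0.914 FPKM in shoots (log2 difference 4.61 ± 0.22, adjusted p = 1.22e-05). In each of these genes the root libraries lay close together and far above every shoot library. RHD6, RSL4 and EXPA7 reached the level for testing only through the root libraries. COBL9, EXPA18, PRP1, PRP3, LRX1 and the NADPH oxidase gene RHD2, all expressed in growing hairs, had log2 differences of 3.33, 4.23, 3.67, 4.17, 4.17 and 3.73. Among the patterning factors, WER, which marks non-hair cells, stood at 13.2, 20.9 and 21.5 FPKM in roots and 1.43, 1.07 and 1.32 FPKM in shoots (log2 difference 3.08 ± 0.20, adjusted p = 4.2e-05), while GL2, a homeodomain factor that acts in root epidermis and in trichomes, did not pass at 2.17, 4.42 and 4.06 FPKM in roots and 5.87, 5.58 and 5.31 FPKM in shoots (log2 difference -0.57 ± 0.22, adjusted p = 0.0632). GL2 values of the organs did not overlap, the root libraries being the lower, and it was called higher in shoots without roots replicate 1 (-0.33) or roots replicate 2 (-0.72). Shoots replicate 3 was the highest shoot library for 12 of the 15. The summed level of the list was 16.8, 14.1 and 19.7 FPKM in shoots against 225, 314 and 281 FPKM in roots. Whether traces of root were in the shoot samples was not tested.

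Stretches upstream of 4 of these genes are shown because the root hair element, a motif described in promoters of hair genes, was found in their last 250 bases before the annotated start, on either strand. The sequences are from RefSeq TAIR10.1, 5′ to 3′ on the gene's strand, with the match in capitals; for PRP1, PRP3 and LRX1 the match reads on the other strand.
EXPA7: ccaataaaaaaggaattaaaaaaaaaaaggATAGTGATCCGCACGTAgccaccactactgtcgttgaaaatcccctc
PRP1: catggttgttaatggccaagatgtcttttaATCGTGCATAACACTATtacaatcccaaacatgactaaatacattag
PRP3: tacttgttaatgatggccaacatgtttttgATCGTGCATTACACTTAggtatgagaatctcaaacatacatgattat
LRX1: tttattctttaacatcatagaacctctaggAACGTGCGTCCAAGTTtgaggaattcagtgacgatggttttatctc
They lie at chr1:4276397-4276473 for EXPA7, chr1:20504742-20504818 for PRP1, chr3:23182525-23182601 for PRP3 and chr1:4069869-4069944 for LRX1, all 4 on the plus strand. The element was found in 5 of 15 root hair members (33.3%), EXPA18 being the fifth, and in 0.758% of 17812 protein-coding genes tested. Of the 1613 genes at least 4-fold higher in roots 2.05% held it, and of the 1803 at least 4-fold higher in shoots 0.776%. As the motif was described in promoters of hair genes, its share among root hair members is no independent finding. A match is a description of the letters and not of a bound site.

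The barrier of the endodermis was equally marked. Of 17 tested members of the list for endodermis, Casparian strip and suberin, 16 were higher in roots, against 35.7% of all lines, and 1 was higher in shoots. The median log2 difference was 3.89. CASP1 (AT2G36100), a membrane scaffold protein of the Casparian strip, reached 263, 262 and 247 FPKM in roots and 15.4, 2.57 and 8.28 FPKM in shoots (log2 difference 4.99 ± 0.52, adjusted p = 0.00031). MYB36, the factor that switches on the strip genes, stood at 23.6, 22.7 and 25.4 FPKM in roots and 3.13, 1.23 and 1.2 FPKM in shoots (log2 difference 3.19 ± 0.26, adjusted p = 9.99e-05). CASP1 varied widely among shoot libraries, yet its highest shoot value was far below its lowest root value. CYP86A1 (AT5G58860), a fatty acid hydroxylase of suberin synthesis, was at 123, 57.7 and 59.9 FPKM in roots and 1.18, 1.58 and 2.41 FPKM in shoots (log2 difference 4.83 ± 0.33, adjusted p = 4.78e-05). Suberin genes ASFT, GPAT5, FAR4, FAR5 and the exporter genes ABCG2, ABCG6 and ABCG20 had differences from 1.61 to 4.63. FAR1, a fatty acyl reductase gene, was the member higher in shoots, at 11.4, 12.8 and 11.4 FPKM in roots and 15.7, 16.04 and 15.6 FPKM in shoots (log2 difference -0.38 ± 0.088, adjusted p = 0.00946), a difference that turned to 0.03 on the rescaled nuclear sums. WT roots replicate 1 was the highest root library for 14 of the 17 members. CYP86A1, for example, was about as high there as in the other root libraries together, and without that library its log2 difference was 4.48 (adjusted p = 4.08e-05).

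Root meristem and cap genes were lower in level, and most were higher in roots. Of 11 tested, 10 were higher in roots, against 35.7% of all lines, and 1 did not pass. The median log2 difference was 2.02. In shoots the median level of the list was 0.335, 0.329 and 0.401 FPKM. Members under 1 FPKM in every shoot library, PLT1 and PLT2 among them, entered the test only through the root libraries. Their differences are descriptions. The stem cell factor PLT1 stood at 2.28, 6.24 and 6.71 FPKM in roots and 0.0457, 0.0534 and 0.219 FPKM in shoots (log2 difference 2.36 ± 0.34, adjusted p = 0.00129). Its relative PLT2 stood at 2.05, 3.76 and 5.51 FPKM in roots and 0.0283, 0.0712 and 0.285 FPKM in shoots (log2 difference 2.02 ± 0.29, adjusted p = 0.00118). WOX5, the factor of the quiescent centre, stood at 2.39, 3.2 and 2.47 FPKM in roots and 0.837, 1.07 and 0.96 FPKM in shoots (log2 difference 0.91 ± 0.13, adjusted p = 0.00131). The root cap factors SMB, BRN1 and BRN2 differed by 2.41, 2.56 and 2.02. SHR, which moves from the stele to specify endodermis, differed by 1.03, whereas SCR, its partner, did not pass the test at 17.0, 27.004 and 26.99 FPKM in roots and 25.9, 24.3 and 25.1 FPKM in shoots (log2 difference -0.11 ± 0.19, adjusted p = 0.628). Replicate 1 was the lowest root library for PLT1, PLT2, BRN1, BRN2, SMB and SCR. In whole organs fewer cells of a type and less RNA per cell cannot be told apart, so a low level of a rare cell type's gene speaks of neither alone.

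**Figure D2:**
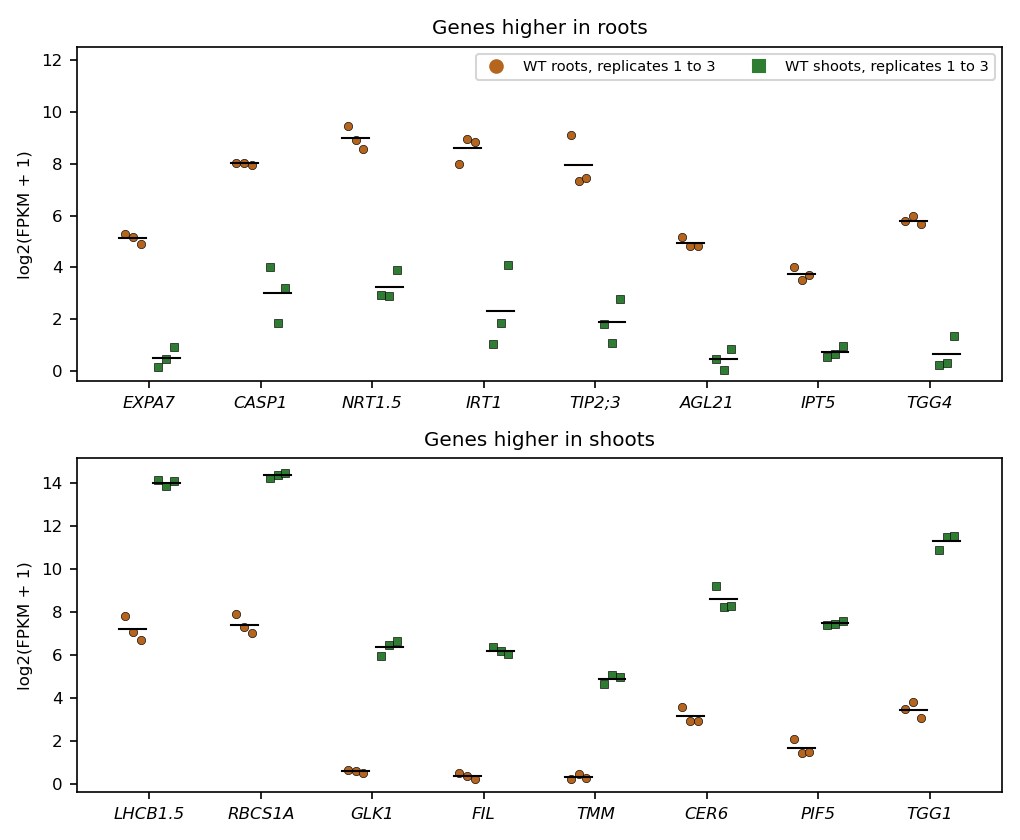
Log2(FPKM + 1) of 16 genes in the 3 WT roots libraries (circles) and the 3 WT shoots libraries (squares), drawn in the order of replicates 1 to 3, with a bar at the mean of each group. The 16 genes were chosen as higher in 1 organ, and in none do the organs overlap. Of all lines tested, 42.4% had roots above shoots with no overlap and 29.2% had shoots above roots. Roots replicate 1 is the highest root library for TIP2;3 and NRT1.5, while shoots replicate 3 is the highest shoot library for IRT1.

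Uptake and long-distance transport of ions leaned to the root. Of 16 tested members of the list for nitrate, ammonium, phosphate, sulfate, potassium and boron transport, 14 were higher in roots, against 35.7% of all lines. The other 2 did not pass, and the median log2 difference was 2.47. A further 7 members, among them NRT2.1 and NRT2.4 for high-affinity nitrate uptake, stayed below the level for testing. The largest difference was that of NRT1.5 (AT1G32450), which loads nitrate into the xylem, at 706, 479 and 381 FPKM in roots and 6.71, 6.35 and 13.9 FPKM in shoots (log2 difference 5.74 ± 0.35, adjusted p = 2.9e-05). The dual-affinity nitrate transporter and sensor gene NRT1.1 stood at 219, 162 and 144 FPKM in roots and 46.0, 32.8 and 33.0 FPKM in shoots (log2 difference 2.2 ± 0.21, adjusted p = 0.000202). Thus a gene of xylem loading was separated more sharply between the organs than the main uptake gene of the same ion. For phosphate, the uptake gene PHT1;1 was at 219, 109 and 96.4 FPKM in roots and 6.76, 4 and 5.32 FPKM in shoots (log2 difference 4.41 ± 0.34, adjusted p = 7.72e-05). PHO1, which exports phosphate into the xylem, stood at 164, 237 and 219 FPKM in roots and 13.5, 12.4 and 16.9 FPKM in shoots (log2 difference 3.76 ± 0.18, adjusted p = 1.28e-05). Both were above every shoot library in every root library. Ammonium transporters split within the family: AMT1;3 was at 137, 76.6 and 65.5 FPKM in roots and 1.88, 1.52 and 2.49 FPKM in shoots (log2 difference 4.93 ± 0.29, adjusted p = 2.69e-05), while AMT1;1 did not pass at 85.4, 51.7 and 47.8 FPKM in roots and 36.2, 40.4 and 46.0 FPKM in shoots (log2 difference 0.54 ± 0.24, adjusted p = 0.091). Potassium channel genes AKT1 for uptake and SKOR for xylem loading differed by 3.01 and 3.25, and the boron genes NIP5;1 for uptake and BOR1 for export by 3.66 and 1.53.

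Iron and zinc genes were divided between the organs. Of 19 members tested 12 were higher in roots and 6 were higher in shoots, against 35.7% and 26.3% of all lines. Uptake genes were on the root side. IRT1 (AT4G19690), the main iron transporter of the root epidermis, stood at 253, 492 and 452 FPKM in roots and 1.05, 2.6 and 15.9 FPKM in shoots (log2 difference 6.27 ± 0.78, adjusted p = 0.000667). The ferric reductase gene FRO2 stood at 41.1, 136 and 119 FPKM in roots and 0.318, 1.04 and 4.48 FPKM in shoots (log2 difference 5.17 ± 0.66, adjusted p = 0.000747). Their activator FIT stood at 41.3, 43.9 and 41.6 FPKM in roots and 1, 1.24 and 2.113 FPKM in shoots (log2 difference 4.17 ± 0.18, adjusted p = 7.77e-06). IRT1 and FRO2 had their highest shoot value in replicate 3, still far below their lowest root value. F6'H1, the enzyme of coumarin synthesis, and ABCG37, which secretes coumarins, differed by 5.46 and 4.91. The group Ib bHLH genes, partners of FIT, were unlike FIT. bHLH101 was higher in shoots, at 19.8, 19.2 and 24.6 FPKM in roots and 64.2, 57.9 and 66.7 FPKM in shoots (log2 difference -1.53 ± 0.13, adjusted p = 0.000104), as were bHLH38 (-0.75) and bHLH100 (-1.16), while bHLH39 was higher in roots (0.69). The negative regulator gene BTS stood at 24.2, 21.7 and 21.5 FPKM in roots and 81.3, 80.7 and 83.5 FPKM in shoots (log2 difference -1.82 ± 0.09, adjusted p = 1.26e-05). OPT3, which loads iron into the phloem, stood at 13.8, 12.54 and 11.7 FPKM in roots and 95.4, 92.7 and 90.4 FPKM in shoots (log2 difference -2.78 ± 0.094, adjusted p = 3.92e-06). No shoot library of either overlapped with a root library. Nicotianamine synthase genes divided in the same list, NAS1 (1.29) and NAS2 (4.16) towards roots and NAS4 (-2.06) towards shoots.

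Aquaporins, the water channels of plasma membrane (PIP) and vacuole (TIP), differed in direction between isoforms. Of 19 tested 8 were higher in roots, 6 were higher in shoots and 5 did not pass, shares near the 35.7% and 26.3% of all lines, and the median log2 difference was 0.17 against 0.16 for all lines. TIP2;3 (AT5G47450) stood at 554, 160.1 and 174 FPKM in roots and 2.53, 1.09 and 5.89 FPKM in shoots (log2 difference 6.08 ± 0.62, adjusted p = 0.00027). Its close relative TIP2;1 stood at 213, 159 and 133 FPKM in roots and 3935, 1919 and 1999.8 FPKM in shoots (log2 difference -3.90 ± 0.33, adjusted p = 0.000122), in the opposite direction. PIP2;6 was at 11.9, 5.53 and 4.24 FPKM in roots and 434, 413 and 421 FPKM in shoots (log2 difference -5.80 ± 0.33, adjusted p = 2.18e-05). PIP2;4 stood at 219, 105 and 97.6 FPKM in roots and 4.36, 4.45 and 6.42 FPKM in shoots (log2 difference 4.46 ± 0.33, adjusted p = 6.82e-05), again opposite within 1 subfamily. Some abundant isoforms were nearer to even, unlike TIP2;1. PIP1;2 was at 1454, 1158 and 1029 FPKM in roots and 1057, 1015 and 1125 FPKM in shoots (log2 difference 0.17 ± 0.17, adjusted p = 0.41). PIP2;1 was at 1222, 1232 and 1106 FPKM in roots and 968, 832 and 1002 FPKM in shoots (log2 difference 0.35 ± 0.14, adjusted p = 0.0727). TIP1;2 did not pass either, at 2312, 1953 and 1724 FPKM in roots and 5716, 2591 and 2923 FPKM in shoots (log2 difference -0.82 ± 0.33, adjusted p = 0.072). On the rescaled nuclear sums 10 members were called higher in roots and 3 higher in shoots. TIP2;3 was much higher in roots replicate 1 than in the other root libraries, and without that library its difference was 5.50 (adjusted p = 0.000425).

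**Figure D3:**
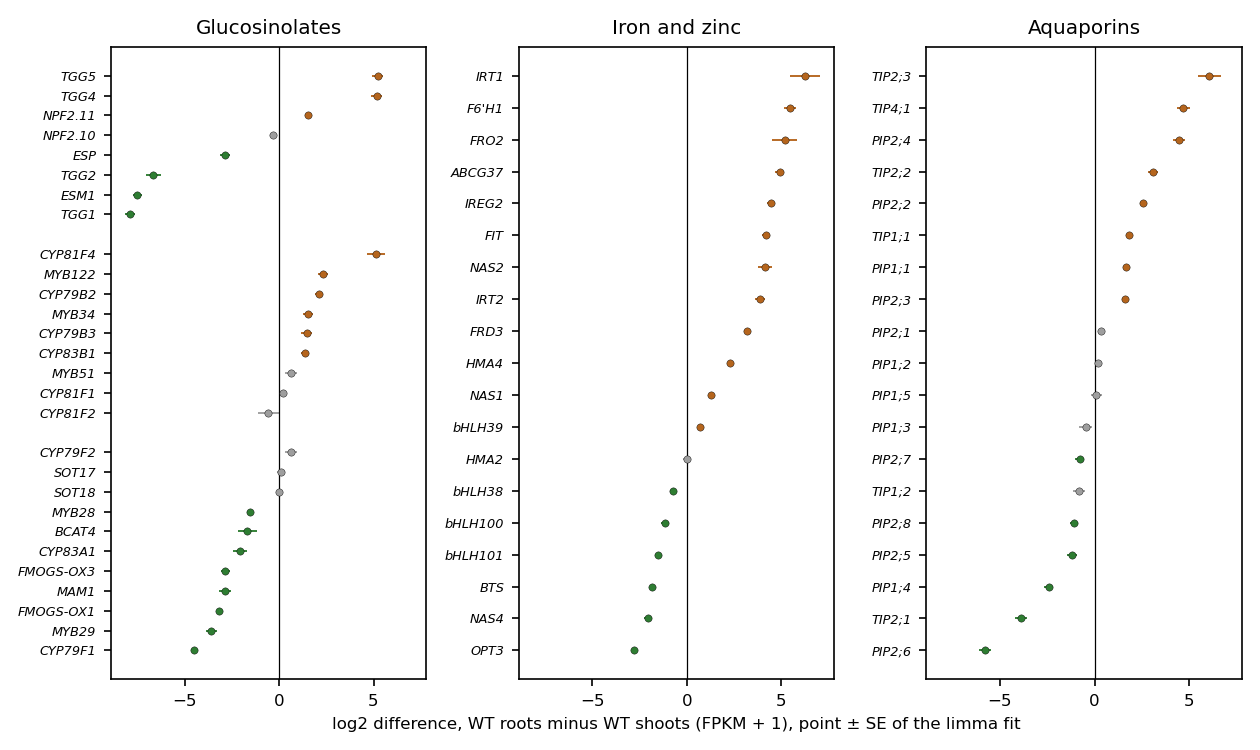
Log2 difference of WT roots minus WT shoots for members of 5 lists, with bars of 1 standard error of the limma fit; brown points were higher in roots, green points higher in shoots and grey points did not pass the test. In the left panel the blocks are, from the top, breakdown and transport, indole and aliphatic glucosinolate genes. Aliphatic genes lie left of 0 or near it, with CYP79F2 farthest to the right, and indole genes right of 0 or near it, with CYP81F2 farthest to the left.

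Photosynthesis genes gave the largest median difference of the lists. All 32 tested nuclear photosystem and antenna members were higher in shoots, against 26.3% of all lines, by log2 differences from -8.59 to -5.45 with a median of -6.99, and each had groups that did not overlap, as had 29.2% of all lines in that direction. LHCB1.5 (AT2G34420), a chlorophyll a/b-binding protein of the photosystem II antenna, stood at 221, 134 and 101.4 FPKM in roots and 17866, 14663 and 17273 FPKM in shoots (log2 difference -6.83 ± 0.30, adjusted p = 8.86e-06). LHCA4 of the photosystem I antenna stood at 198, 165 and 132 FPKM in roots and 12241, 12958 and 14366 FPKM in shoots (log2 difference -6.33 ± 0.19, adjusted p = 3.21e-06). PETC, the Rieske protein gene of the cytochrome b6f complex, had the smallest difference of the list, at 38.1, 26.3 and 24.1 FPKM in roots and 1061, 1419 and 1468 FPKM in shoots (log2 difference -5.45 ± 0.22, adjusted p = 6.62e-06). Even here the lowest shoot library was far above the highest root library. Root levels were not 0: their sum over the 32 members was 1978, 1403 and 1098 FPKM in roots and 172595, 180365 and 204060 FPKM in shoots. Replicate 1 was the highest root library for 27 of the 32. Antenna genes have near-identical copies among which reads can be divided uncertainly, and the lines of LHCB1.1, LHCB1.2 and LHCB1.3 were left out because they were not quantified in every library.

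The last 250 bases before 16.1% of these genes, 5 of 31, held a G-box, CACGTG, a motif bound by light-regulated bZIP and bHLH factors. Of the 17812 protein-coding genes tested 7.27% held it, as did 8.26% of those at least 4-fold higher in shoots and 4.90% of those at least 4-fold higher in roots. The I-box, GATAAG, was found in 8 of the 31 (25.8%) against 12.4% of all, counting both strands. Windows around the G-box of 4 members are shown, with the motif in capitals.
LHCB4.1: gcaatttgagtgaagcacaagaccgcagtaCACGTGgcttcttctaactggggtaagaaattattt
LHCB6: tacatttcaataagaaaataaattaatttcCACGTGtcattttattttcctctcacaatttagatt
LHCA4: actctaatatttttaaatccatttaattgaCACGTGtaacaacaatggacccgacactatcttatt
PSBQA: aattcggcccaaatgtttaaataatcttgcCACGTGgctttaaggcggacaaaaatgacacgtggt
They lie at chr5:208762-208827 on the plus strand for LHCB4.1, chr1:5447969-5448034 on the minus strand for LHCB6, chr3:17495086-17495151 on the minus strand for LHCA4 and chr4:11334239-11334304 on the plus strand for PSBQA, in TAIR10.1. The second G-box of PSBQA is left in lower case. The fifth member with a G-box was PSAH2, and no G-box was found in the windows of the 15 root hair members.

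Carbon fixation genes had the same direction. Of 20 tested Calvin cycle and photorespiration members 19 were higher in shoots, with a median log2 difference of -5.81. RBCS1A (AT1G67090), a small subunit of Rubisco, had the highest mean of any list member in shoots, at 237, 158 and 128 FPKM in roots and 19210.5, 21281 and 22441 FPKM in shoots (log2 difference -6.95 ± 0.25, adjusted p = 4.89e-06). PRK, the phosphoribulokinase gene found only in the Calvin cycle, stood at 8.49, 6.48 and 4.8 FPKM in roots and 1106, 1253 and 1386 FPKM in shoots (log2 difference -7.38 ± 0.20, adjusted p = 2.81e-06). TKL1, a plastid transketolase that also serves the pentose phosphate pathway, stood at 144, 163 and 154 FPKM in roots and 625, 677 and 702 FPKM in shoots (log2 difference -2.113 ± 0.11, adjusted p = 1.76e-05), the smallest difference among those that passed. The photorespiratory gene GOX2 stood at 53.6, 50.2 and 48.7 FPKM in roots and 538, 553 and 589.6 FPKM in shoots (log2 difference -3.44 ± 0.10, adjusted p = 3.09e-06) while GOX1 differed by -6.93. Thus the paralog with the higher root level kept the smaller difference. AGT and RBCS1A each have a second line in the table. The line of AGT did not pass and varied widely, from 1406 to 6739 FPKM in roots and from 4602 to 30656 FPKM in shoots. Without shoots replicate 1 it was called higher in shoots (-2.79, adjusted p = 0.0276).

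Chlorophyll synthesis was higher in shoots in all 16 members tested, with a median log2 difference of -4.99. Its extent varied along the pathway. GSA1, an enzyme of the early steps shared with heme synthesis, stood at 34.98, 24.9 and 24.8 FPKM in roots and 93.6, 95.2 and 85.8 FPKM in shoots (log2 difference -1.68 ± 0.16, adjusted p = 0.000178). GUN4, which stimulates magnesium chelatase, stood at 2.57, 2.46 and 1.69 FPKM in roots and 352, 284 and 339.9 FPKM in shoots (log2 difference -6.66 ± 0.15, adjusted p = 2.36e-06). PORB, protochlorophyllide oxidoreductase, stood at 13.1, 13.0 and 11.8 FPKM in roots and 1126, 1285 and 1324 FPKM in shoots (log2 difference -6.51 ± 0.11, adjusted p = 2.24e-06). HEMA1, also before the branch, differed by -2.94, less than any magnesium-branch gene of the list. Of the transcription factors that activate these genes, GLK1 stood at 0.542, 0.497 and 0.429 FPKM in roots and 60.5, 88.2 and 99.1 FPKM in shoots (log2 difference -5.78 ± 0.19, adjusted p = 3.88e-06). GLK2 stood at 6.38, 5.24 and 4.26 FPKM in roots and 98.4, 123 and 128 FPKM in shoots (log2 difference -4.23 ± 0.17, adjusted p = 6.18e-06). GLK2 was thus present at several FPKM in all root libraries, and GLK1 stayed under 1 FPKM there.

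**Figure D4:**
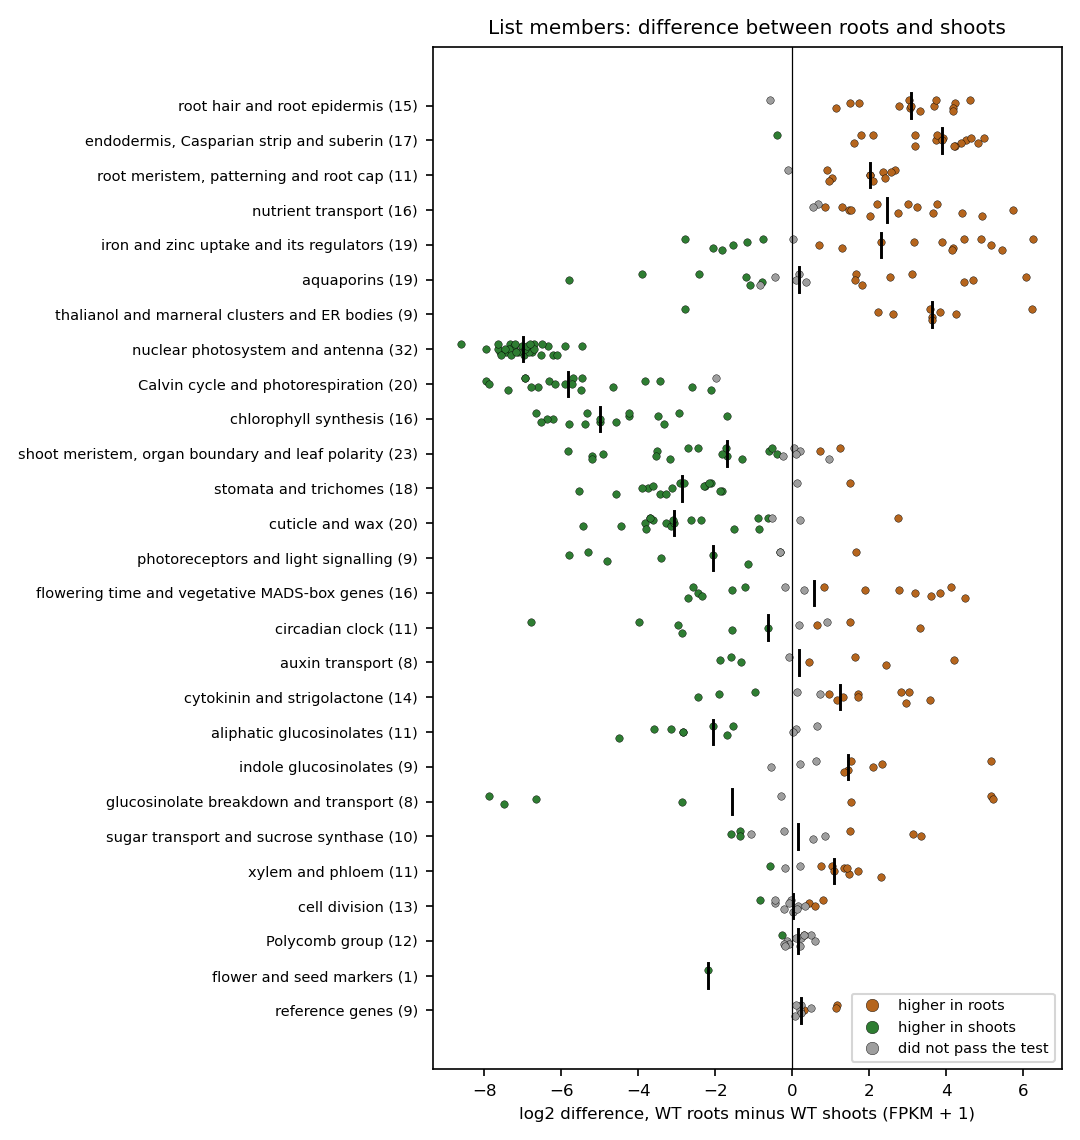
Log2 difference of WT roots minus WT shoots for every tested member of the 27 lists, with the number tested in brackets and a black bar at the median of the list. Brown points were higher in roots, green points higher in shoots, and grey points did not pass the test; photosystem members lie between -8.59 and -5.45, cell division members between -0.85 and 0.81.

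Leaf polarity and leaf growth genes were high in shoots, but several meristem genes were shared by the organs. Of 23 tested members of the list for shoot meristem, organ boundary and leaf polarity, 16 were higher in shoots and 2 were higher in roots, with a median of -1.69. The YABBY genes, which mark the lower side of leaves, were the sharpest: FIL (AT2G45190) stood at 0.43, 0.276 and 0.182 FPKM in roots and 80.4, 70.8 and 65.2 FPKM in shoots (log2 difference -5.82 ± 0.13, adjusted p = 2.28e-06), and YAB2, YAB3 and YAB5 differed by -4.92, -5.19 and -5.19. STM, the homeobox gene that keeps the shoot meristem, stood at 0.0562, 0.0875 and 0.0459 FPKM in roots and 5.45, 4.54 and 4.49 FPKM in shoots (log2 difference -2.45 ± 0.12, adjusted p = 1.09e-05). The related KNAT6 was higher in roots, at 11.8, 10.2 and 11.7 FPKM in roots and 4.53, 4.14 and 3.97 FPKM in shoots (log2 difference 1.23 ± 0.11, adjusted p = 0.000137), and KNAT1 did not pass, at 5.26, 9.7 and 9.81 FPKM in roots and 10.4, 6.89 and 6.12 FPKM in shoots (log2 difference 0.06 ± 0.28, adjusted p = 0.863). Class III HD-ZIP and KANADI genes, which also act in root vascular tissue, gave small values: REV was higher in roots (0.73), PHV was higher in shoots (-0.53), and PHB (0.20) and KAN1 (0.09) did not pass. KAN1 was called higher in roots without roots replicate 1, at 0.29 (adjusted p = 0.0476). WUS and CLV3, of the stem cell niche, stayed below the level for testing. TCP4, a factor of leaf maturation, stood at 2.14, 2.64 and 3.18 FPKM in roots and 40.8, 40.5 and 41.7 FPKM in shoots (log2 difference -3.53 ± 0.12, adjusted p = 4.53e-06).

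Stomata and trichome genes were mostly low in roots, where the median member stood at 0.22, 0.0812 and 0.0922 FPKM. Summed over the list, levels were 17.4, 14.2 and 13.8 FPKM in roots and 203, 260 and 249 FPKM in shoots, so some members were present in roots. Of 18 members tested 16 were higher in shoots, against 26.3% of all lines, with a median log2 difference of -2.86. TMM (AT1G80080), the receptor-like protein of stomatal patterning, stood at 0.175, 0.378 and 0.218 FPKM in roots and 24.4, 32.3 and 29.9 FPKM in shoots (log2 difference -4.56 ± 0.15, adjusted p = 3.44e-06). SPCH, which starts the lineage, stood at 0.0984, 0.0839 and 0.0447 FPKM in roots and 6.96, 8.2 and 6.36 FPKM in shoots (log2 difference -2.92 ± 0.13, adjusted p = 7.92e-06). The guard cell factor FMA stood at 0.0635, 0.0446 and 0.0156 FPKM in roots and 11.2, 14.4 and 13.8 FPKM in shoots (log2 difference -3.75 ± 0.13, adjusted p = 4.29e-06). MUTE, which acts between them, was listed at 0 in all root libraries and at 3.59, 3.81 and 3.96 FPKM in shoots. All root values of SPCH, FMA and MUTE were under 0.1 FPKM, and like TMM they entered the test only through the shoot libraries. The member higher in roots was GL3, a bHLH factor that also acts in root epidermis, at 1.56, 2.89 and 2.93 FPKM in roots and 0.14, 0.136 and 0.302 FPKM in shoots (log2 difference 1.51 ± 0.20, adjusted p = 0.000825).

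Cuticle genes were mostly higher in shoots. Of 20 members tested 17 were higher in shoots and 1 was higher in roots, with a median of -3.08. CER6, the condensing enzyme of wax synthesis, stood at 10.9, 6.57 and 6.61 FPKM in roots and 594, 302 and 312 FPKM in shoots (log2 difference -5.44 ± 0.32, adjusted p = 2.61e-05). CER4, a fatty acyl reductase that makes primary alcohols, was the member higher in roots, at 10.8, 6.06 and 5.32 FPKM in roots and 0.0964, 0.269 and 0.241 FPKM in shoots (log2 difference 2.75 ± 0.25, adjusted p = 0.00016). ATML1, an identity factor of the shoot epidermis, stood at 1.63, 3.65 and 3.88 FPKM in roots and 50.4, 47.0 and 43.4 FPKM in shoots (log2 difference -3.61 ± 0.25, adjusted p = 4.97e-05). The wax regulator MYB96 stood at 1.08, 2.04 and 2.16 FPKM in roots and 51.6, 61.1 and 61.7 FPKM in shoots (log2 difference -4.44 ± 0.19, adjusted p = 7.6e-06). All root values of CER6, ATML1 and MYB96 lay below all their shoot values, and the reverse held for CER4.

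Light and clock genes differed member by member. Of 9 photoreceptor and light signalling members 7 were higher in shoots. PIF5, a factor that promotes growth in shade, stood at 3.31, 1.7 and 1.79 FPKM in roots and 169.5, 174 and 189 FPKM in shoots (log2 difference -5.80 ± 0.19, adjusted p = 3.97e-06). The blue-light receptor gene PHOT2 stood at 2.39, 2.75 and 2.77 FPKM in roots and 78.9, 115 and 114 FPKM in shoots (log2 difference -4.82 ± 0.17, adjusted p = 4.4e-06). HY5, a mobile activator of light responses, was higher in roots, at 17.8, 20.8 and 17.5 FPKM in roots and 3.66, 6.74 and 5.77 FPKM in shoots (log2 difference 1.65 ± 0.20, adjusted p = 0.00064). PHYA, the far-red receptor gene, differed by -0.32 and turned to 0.12 on the rescaled nuclear sums. Its call was also lost without any 1 library other than roots replicate 1 (adjusted p up to 0.128). Among 11 clock members 3 were higher in roots and 6 were higher in shoots, against 35.7% and 26.3% of all lines. The morning gene CCA1 stood at 1.83, 1.55 and 1.08 FPKM in roots and 24.9, 46.8 and 47.3 FPKM in shoots (log2 difference -3.99 ± 0.28, adjusted p = 4.97e-05). The evening gene ELF4 stood at 212, 86.7 and 99.5 FPKM in roots and 11.4, 10.9 and 11.8 FPKM in shoots (log2 difference 3.32 ± 0.33, adjusted p = 0.000248). LHY (-2.95) and PRR9 (-2.87) went with CCA1, and TOC1 (1.5) with ELF4. PRR7 (-1.56) and PRR5 (-0.62) also had negative differences, and LUX (0.89), ELF3 (0.64) and GI (0.19) positive ones. Of the 11 members 2 did not pass. The hour of harvest is not given in the labels. RVE8 was listed at 0, 0 and 163 FPKM in roots and at 625, 493 and 715 FPKM in shoots, and its call was lost without any 1 library other than roots replicate 3 (adjusted p up to 0.0714).

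Flowering-time and vegetative MADS-box genes were divided member by member. Of 16 tested 8 were higher in roots and 6 were higher in shoots, against 35.7% and 26.3% of all lines. ANR1, AGL21, AGL14 and TFL1 stayed under 1 FPKM in every shoot library and entered the test only through roots. FT entered it only through shoots. The differences of these genes are descriptions. ANR1, a MADS-box gene of lateral root growth in nitrate, stood at 7.27, 11.2 and 9.28 FPKM in roots and 0.041, 0.0479 and 0.243 FPKM in shoots (log2 difference 3.19 ± 0.18, adjusted p = 2.15e-05). Its relative AGL21 stood at 35.04, 27.1 and 27.2 FPKM in roots and 0.378, 0.0323 and 0.802 FPKM in shoots (log2 difference 4.48 ± 0.23, adjusted p = 1.55e-05). AGL12, AGL17 and AGL42 differed by 4.12, 3.6 and 3.85. AGL14 stood at 1.69, 12.4 and 14.3 FPKM in roots and 0.0445, 0.163 and 0.392 FPKM in shoots (log2 difference 2.78 ± 0.67, adjusted p = 0.0115), with replicate 1 far below the other root libraries, and differed by 3.59 (adjusted p = 3.79e-05) without it. The floral repressor SVP stood at 24.2, 33.5 and 29.8 FPKM in roots and 79.4, 88.4 and 95.7 FPKM in shoots (log2 difference -1.57 ± 0.15, adjusted p = 0.000186). The promoter AGL20, also known as SOC1, stood at 15.6, 17.1 and 15.0 FPKM in roots and 67.6, 98.1 and 113 FPKM in shoots (log2 difference -2.45 ± 0.20, adjusted p = 9.41e-05). FT, the mobile flowering signal, was low in shoots and lower in roots, at 0, 0.282 and 0.218 FPKM in roots and 1.78, 1.77 and 1.52 FPKM in shoots (log2 difference -1.21 ± 0.14, adjusted p = 0.000386). TFL1, which keeps shoot meristems indeterminate, was higher in roots, at 5.36, 4.16 and 3.57 FPKM in roots and 0.35, 0.408 and 0.555 FPKM in shoots (log2 difference 1.89 ± 0.16, adjusted p = 0.000108).

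Hormone genes differed by step and by member. Of 14 cytokinin and strigolactone members tested 9 were higher in roots and 3 were higher in shoots, against 35.7% and 26.3% of all lines. Their median was 1.24. IPT5 and IPT7 of cytokinin synthesis differed by 3.03 and 1.71, while IPT3 did not pass (0.12). CYP735A2, which makes trans-zeatin, stood at 50.5, 16.4 and 10.6 FPKM in roots and 1.85, 0.368 and 0.558 FPKM in shoots (log2 difference 3.58 ± 0.59, adjusted p = 0.00235). ABCG14, which sends it to the shoot, stood at 77.5, 56.5 and 47.3 FPKM in roots and 8.35, 6.04 and 6.14 FPKM in shoots (log2 difference 2.95 ± 0.21, adjusted p = 5.72e-05). The receptor gene WOL stood at 38.7, 39.6 and 36.8 FPKM in roots and 4.41, 4.51 and 4.71 FPKM in shoots (log2 difference 2.83 ± 0.083, adjusted p = 3.09e-06). Response regulators went both ways, ARR4 (0.96) and ARR5 (1.31) towards roots, ARR7 (-0.97) and ARR15 (-1.90) towards shoots. Of these calls ARR15 held with any 1 library left out. ARR4 did not pass without shoots replicate 1 (adjusted p = 0.0561), ARR5 without any 1 shoots library (adjusted p up to 0.11) and ARR7 without replicate 2 or 3 of either organ (adjusted p up to 0.0832). D27, an early enzyme of strigolactone synthesis in plastids, was higher in shoots (-2.44), while MAX3 and MAX4 stayed below the level for testing. In auxin transport 4 of 8 were higher in roots and 3 higher in shoots, against the same shares of all lines. PIN2 of root gravitropism stood at 24.8, 55.1 and 54.6 FPKM in roots and 1.32, 0.825 and 2.08 FPKM in shoots (log2 difference 4.2 ± 0.36, adjusted p = 0.000122), and PIN3 and PIN7 differed by -1.58 and -1.87.

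Glucosinolates, the sulfur-rich defence compounds of the cabbage family, differed in direction by branch. Of 11 aliphatic genes 8 were higher in shoots, against 26.3% of all lines, and 3 did not pass, with a median of -2.06. Of 9 indole genes 6 were higher in roots, against 35.7% of all lines, and 3 did not pass, with a median of 1.46. Over the alternatives 0 to 3 aliphatic genes were called higher in roots and 7 or 8 higher in shoots, and 3 to 8 indole genes were called higher in roots and at most 1 higher in shoots. In the aliphatic branch CYP79F1, the first committed enzyme, stood at 1, 1.88 and 1.56 FPKM in roots and 44.4, 60.4 and 58.5 FPKM in shoots (log2 difference -4.48 ± 0.19, adjusted p = 7.32e-06), while its paralog CYP79F2 did not pass, at 8.68, 18.2 and 16.6 FPKM in roots and 12.004, 7.18 and 7.08 FPKM in shoots (log2 difference 0.64 ± 0.32, adjusted p = 0.127). CYP79F2 values overlapped between the organs, the shoot value of replicate 1 lying inside the root range. The regulators MYB28 and MYB29 differed by -1.54 and -3.58. In the indole branch CYP79B2 stood at 97.5, 58.0 and 71.4 FPKM in roots and 19.3, 14.1 and 16.4 FPKM in shoots (log2 difference 2.1 ± 0.21, adjusted p = 0.000271). The regulator MYB34 stood at 76.1, 43.1 and 42.7 FPKM in roots and 14.4, 19.3 and 19.0 FPKM in shoots (log2 difference 1.52 ± 0.25, adjusted p = 0.00248). CYP81F4, which modifies the indole ring, stood at 638, 268 and 247 FPKM in roots and 14.1, 5.15 and 9.17 FPKM in shoots (log2 difference 5.15 ± 0.47, adjusted p = 0.000168), and its relative CYP81F2 did not pass, at 53.4, 13.0 and 14.1 FPKM in roots and 43.0, 23.7 and 32.8 FPKM in shoots (log2 difference -0.56 ± 0.55, adjusted p = 0.411). The sulfotransferase genes SOT17 and SOT18, counted in the aliphatic branch, did not pass, at 0.09 and 0.02. Without roots replicate 1, CYP81F2 was called higher in shoots, at -1.20 (adjusted p = 0.00945), and CYP79F2 higher in roots, at 0.95 (adjusted p = 0.0175).

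Myrosinases, the enzymes that cut glucosinolates, were divided between the organs by isoform. Of 8 members of the list for glucosinolate breakdown and transport 3 were higher in roots and 4 higher in shoots, against 35.7% and 26.3% of all lines. TGG1, the myrosinase of guard cells and phloem idioblasts, stood at 10.3, 13.0 and 7.25 FPKM in roots and 1886, 2909 and 3009 FPKM in shoots (log2 difference -7.87 ± 0.27, adjusted p = 4.02e-06). TGG4, a root myrosinase, stood at 54.4, 61.4 and 49.8 FPKM in roots and 0.182, 0.256 and 1.56 FPKM in shoots (log2 difference 5.17 ± 0.31, adjusted p = 2.78e-05). TGG2 differed by -6.64 and TGG5 by 5.22, so each pair of close relatives shared a direction. Reads of TGG4 and TGG5 can be hard to assign. ESM1, a modifier of the breakdown products, stood at 3.75, 1.94 and 1.34 FPKM in roots and 597, 584 and 542 FPKM in shoots (log2 difference -7.49 ± 0.26, adjusted p = 4.26e-06). ESP, which directs them to nitriles, stood at 0, 0.0803 and 0.0612 FPKM in roots and 3.91, 7.61 and 9.22 FPKM in shoots (log2 difference -2.85 ± 0.28, adjusted p = 0.000217). NPF2.11, a glucosinolate importer, was higher in roots (1.54) and NPF2.10 did not pass (-0.29).

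Triterpene and ER body genes were high in roots, and all were highest in WT roots replicate 1 among the root libraries. Of 9 tested members 8 were higher in roots and 1 was higher in shoots, with a median of 3.63. THAS1, the thalianol synthase, stood at 68.4, 6.53 and 6.9 FPKM in roots and 0.742, 0.237 and 0.14 FPKM in shoots (log2 difference 3.57 ± 0.87, adjusted p = 0.0125). THAD, a desaturase gene of the same cluster, stood at 242, 11.3 and 10.8 FPKM in roots and 2.108, 0.279 and 0.249 FPKM in shoots (log2 difference 4.26 ± 1.22, adjusted p = 0.0229). In both, root replicate 1 lay far above the other root libraries. Without it their differences were 2.52 (adjusted p = 0.00028) for THAS1 and 2.82 (adjusted p = 0.00325) for THAD, 8 members were again called higher in roots and the median was 2.55. THAD did not pass without shoots replicate 2 or 3 (adjusted p up to 0.0719). MRN1, the marneral synthase, reached 75.1 FPKM in root replicate 1 and 0.314 and 0.268 FPKM in the others, and was not tested. PYK10, the myrosinase-like glucosidase stored in ER bodies, was among the highest of all root transcripts, at 9557, 4791 and 4656 FPKM in roots and 939.8, 321 and 362 FPKM in shoots (log2 difference 3.64 ± 0.50, adjusted p = 0.00101). TSA1, an ER body protein of leaves, was higher in shoots, at 4.08, 0.758 and 0.437 FPKM in roots and 12.3, 16.2 and 17.5 FPKM in shoots (log2 difference -2.79 ± 0.48, adjusted p = 0.00285). In shoots too replicate 1 was the highest library for 7 of the 9 members.

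Other lists showed smaller differences. Xylem and phloem genes were higher in roots for 8 of 11, led by the xylem protease gene XCP1 at 129, 71.2 and 66.2 FPKM in roots and 16.1, 16.4 and 16.2 FPKM in shoots (log2 difference 2.32 ± 0.26, adjusted p = 0.000389), and the phloem protein gene SEOR1 was higher in shoots (-0.58). For all 11, root replicate 1 was the highest root library, and without it the median fell from 1.09 to 0.76 with 8 called higher in roots and 2 higher in shoots. Of 10 sugar genes 3 were higher in roots and 3 higher in shoots, shares near the 35.7% and 26.3% of all lines. SUS1, a sucrose synthase, stood at 33.3, 87.1 and 84.9 FPKM in roots and 6.15, 5.85 and 6.74 FPKM in shoots (log2 difference 3.14 ± 0.37, adjusted p = 0.000529), the phloem loader SUC2 at 82.0, 40.7 and 43.5 FPKM in roots and 132, 129 and 150.5 FPKM in shoots (log2 difference -1.36 ± 0.28, adjusted p = 0.00572). The exporter SWEET12 was higher in roots (1.51) and SWEET11 higher in shoots (-1.59). Both kept their direction, but not always their call, when 1 library was left out. SWEET12 did not pass without shoots replicate 2 or 3 (1.31 to 1.47, adjusted p up to 0.0727). SWEET11 did not pass without any 1 library other than roots replicate 1 (-1.73 to -1.18, adjusted p up to 0.13). Cell division genes were close to even, 3 of 13 higher in roots, 1 higher in shoots and a median of 0.02. Their median was 0.43 on the rescaled nuclear sums and -0.16 after median-of-ratios scaling. CYCB1;1 stood at 4.34, 6.2 and 6.85 FPKM in roots and 4.53, 7.08 and 6.21 FPKM in shoots (log2 difference -0.03 ± 0.21, adjusted p = 0.906). Of 12 Polycomb group genes 1, VAL2, was higher in roots (0.30) and 1, EMF2, was higher in shoots (-0.26), and EMF2 turned to 0.16 on the rescaled nuclear sums, where 7 were called higher in roots. After median-of-ratios scaling 4 were called higher in shoots. Neither VAL2 nor EMF2 passed without replicate 2 or 3 of either organ (adjusted p up to 0.0676 and 0.147). CLF itself did not pass, at 8.09, 13.8 and 14.2 FPKM in roots and 8.84, 8.33 and 6.93 FPKM in shoots (log2 difference 0.50 ± 0.22, adjusted p = 0.0983), but was called higher in roots without roots replicate 1, at 0.74 (adjusted p = 0.00315). Of 9 reference genes 3 were higher in roots, a share near the 35.7% of all lines. ACT2 stood at 1113, 632 and 585 FPKM in roots and 449, 274 and 297 FPKM in shoots (log2 difference 1.16 ± 0.31, adjusted p = 0.0183), GAPC1 differed by 1.14 and TIP41 by 0.32. On the rescaled nuclear sums all 9 were called higher in roots, and after median-of-ratios scaling 2 were. The ACT2 call was lost without shoots replicate 2 or 3 (adjusted p up to 0.0664), and that of TIP41 without these or roots replicate 2 (adjusted p up to 0.0697).

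By the size of single genes, among nuclear lines that name 1 gene with a symbol, the root side was led by MLP328 (AT2G01520), a major latex protein-like gene. It stood at 5678, 915 and 954 FPKM in roots and 36.4, 6.37 and 22.7 FPKM in shoots (log2 difference 6.51 ± 0.90, adjusted p = 0.00109). Its close relative MLP329, the glycine-rich protein gene GRP9, the defensin-like gene PDF2.5, the flavonol synthase gene FLS5, the arabinogalactan protein gene AGP30 and the peptide gene CLE5 followed with differences of 6.15, 6.09, 6.19, 5.65, 5.65 and 5.57, together with IRT1, TIP2;3 and NRT1.5 above. MLP328 was several times higher in root replicate 1 than in the others and differed by 5.65 (adjusted p = 0.00135) without it, below IRT1 at 6.56 (adjusted p = 0.00209), so its lead rests on that library. AGL16 and SNRK2.9 also came within the 12 largest, but each had a shoot value listed at 0 and a second line for its gene, and AGL16 did not pass without shoots replicate 1 or 2 (adjusted p up to 0.0624). The shoot side held LHCB2.3 (AT3G27690), at 3.52, 6.2 and 3.7 FPKM in roots and 1469, 2186 and 2592 FPKM in shoots (log2 difference -8.57 ± 0.28, adjusted p = 3.53e-06), CA2, a carbonic anhydrase, at 6.26, 4.21 and 2.29 FPKM in roots and 982, 1193 and 1312 FPKM in shoots (log2 difference -7.85 ± 0.30, adjusted p = 5.56e-06), and the germin gene GER3 (-7.85) and GASA6 (-7.66). FRO7, CIA2 and FUM2 were listed at 0 in all root libraries. In shoots FRO7 stood at 807, 1593 and 3694 FPKM, CIA2 at 1009.6, 1188 and 3074 FPKM and FUM2 at 732, 531 and 506 FPKM. Each of these 3 genes has a second line in the table, and a 0 here can be a failed estimate, so no fold is given. EXT3, an extensin of the cell wall, was among the 6 highest root transcripts, at 3729, 5829 and 5684 FPKM in roots and 351, 121 and 248 FPKM in shoots (log2 difference 4.5 ± 0.42, adjusted p = 0.000178).

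Counted by family, cell wall enzymes leaned to roots; these families were formed from product names after the values were seen. Of 53 class III peroxidases tested 44 were higher in roots and 5 higher in shoots, and 42 were at least 2-fold higher in roots (79.2%, against 18.6% of all lines). Laccases were higher in roots for 11 of 12, with a median of 1.66. NAC factors were higher in roots for 36 of 57 and in shoots for 5, MYB factors for 44 of 78 and 17. Jacalin-type lectins were higher in roots for 17 of 22. Over all lines 35.7% were higher in roots and 26.3% higher in shoots. Cysteine-rich receptor-like kinases were higher in shoots for 11 of 16. Other families went both ways, with 31 of 59 SAUR proteins higher in shoots and 20 higher in roots, and 25 of 50 GDSL lipases higher in shoots and 20 higher in roots. Pentatricopeptide repeat proteins, which act in organelle RNA processing, were higher in roots for 37 of 161 and higher in shoots for 42, with a median of 0.09. At least 2-fold higher in roots were 2 of them (1.24%, against 18.6% of all lines). At least 2-fold higher in shoots were 24 (14.9%, against 17.9% of all lines).

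Some of the genes with large differences lay close together. Here neighbours are genes next to each other among the genes tested, so genes not tested can lie between them, and only 26 of the 86 runs spanned no other annotated gene. Runs of 3 or more such neighbours that were all at least 4-fold higher in 1 organ comprised, for roots, 36 of 3 genes, 6 of 4, 2 of 5 and 1 of 6, and for shoots 32 of 3 genes, 7 of 4, 1 of 5 and 1 of 7. The longest, 7 genes higher in shoots, spanned chr4:11840134-11857417 and held lipid-transfer protein genes from AT4G22470 to AT4G22517. AT4G22517 stood at 1.83, 2.14 and 1.05 FPKM in roots and 1133, 1699 and 1372 FPKM in shoots (log2 difference -9.04 ± 0.22, adjusted p = 2.42e-06). AT4G22485 stood at 0.659, 0.341 and 0.232 FPKM in roots and 457, 388 and 401 FPKM in shoots (log2 difference -8.21 ± 0.14, adjusted p = 2.24e-06). In the other WT organs AT4G22517 had means of 0.773 ± 0.4 FPKM in inflorescences and 1.37 ± 1.19 FPKM in siliques (SD, n = 3), and AT4G22485 of 0.123 ± 0.0291 FPKM in inflorescences and 0.29 ± 0.323 FPKM in siliques (SD, n = 3), so the 2-week shoot was the only 1 of the 4 WT organs with a high level. A run of 5 genes higher in roots at chr4:8751320-8807232 held PEN1, a triterpene synthase, at 57.8, 31.95 and 32.4 FPKM in roots and 1.53, 0.559 and 0.853 FPKM in shoots (log2 difference 4.37 ± 0.29, adjusted p = 4.23e-05), the P450 genes CYP705A1, CYP705A4 and CYP702A5 (3.6, 3.41 and 4.08) and the acyltransferase-like gene AT4G15390, at 255, 195 and 168 FPKM in roots and 4.66, 2.99 and 5.33 FPKM in shoots (log2 difference 5.28 ± 0.23, adjusted p = 8.25e-06). GLIP2 and GLIP3, GDSL lipases, framed another run of 5 higher in roots at chr1:20143144-20152752 and differed by 3.01 and 3.85. A run of 6 uncharacterized genes, AT1G53610 to AT1G53640, lay at chr1:20008996-20025541, with differences from 2.25 to 3.58. Root replicate 1 was the highest in all 6. EP1 and the receptor-like kinase genes CRK10, CRK12, CRK13 and CRK18 formed a run of 5 higher in shoots at chr4:12134973-12170080, with CRK10 at 3.19, 2.93 and 4.16 FPKM in roots and 82.2, 106 and 107 FPKM in shoots (log2 difference -4.49 ± 0.16, adjusted p = 4.51e-06). Neighbours of 1 family can share reads, so single values within a run are less certain than the run as a whole.

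**Figure D5:**
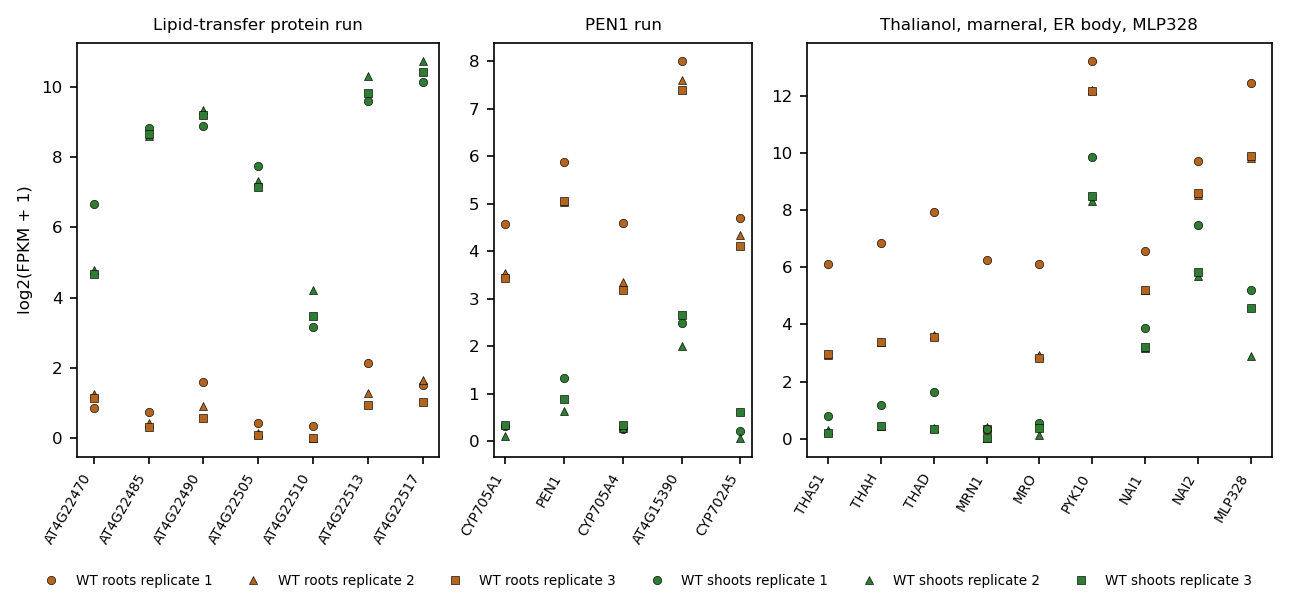
Log2(FPKM + 1) in each of the 6 WT libraries for the run of 7 genes higher in shoots (left), the run around PEN1 (middle), and thalianol, marneral and ER body genes with MLP328 (right); marker shapes give the replicate. In the right panel root replicate 1 lies above the other root libraries in every gene, by most for MRN1, at 75.1 against 0.314 and 0.268 FPKM.

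Among the 4 WT organs, more lines stood out in roots than in shoots. Inflorescences and siliques came from 5-week soil-grown plants, and roots and shoots from 2-week seedlings on MS medium. In comparisons with inflorescences and siliques, organ therefore cannot be told apart from age and growth medium. In a fit of the 12 WT libraries 3324 of 22926 lines (14.5%) were higher in roots than in each of the 3 other organs, and 1557 (6.79%) were higher in shoots than in each. Without the 4 replicate 1 libraries these counts were 4572 and 2673. Root hair genes were in the root set for 12 of 15, endodermis genes for 12 of 17, and indole glucosinolate genes for 6 of 9. Among the exceptions, PER64, a peroxidase of the Casparian strip, had its highest mean in siliques, at 601 ± 166 FPKM, and GPAT5, of suberin, in inflorescences, at 48.7 ± 2.29 FPKM. Photosystem genes were in the shoot set for 21 of 32, but Calvin cycle genes for 4 of 20. RBCS1A had means of 7689 ± 1664 FPKM in inflorescences and 16956 ± 5590.1 FPKM in siliques (SD, n = 3). Of stomata and trichome genes 9 of 18, and of cuticle genes 2 of 20, were in the shoot set. CER1, which makes wax alkanes, stood at 323 ± 79.1 FPKM in inflorescences and 335 ± 137 FPKM in siliques (SD, n = 3), against 14.7, 28.7 and 30.9 FPKM in shoots.

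In the clf-28 mutant the difference between roots and shoots could be set beside that of WT. The library labelled clf-28 shoots replicate 3 was left out of that fit, because seed genes were high in it, CRA1 at 18331 FPKM against 6.51 and 35.02 FPKM in the other clf-28 shoots libraries. Of 21087 lines 2250 (10.7%) had a different root to shoot contrast in clf-28, 1055 higher and 1195 lower. This count was 4346 without WT roots replicate 1, 5895 without both WT replicate 1 libraries and 553 with all 12 libraries as labelled. The count was 1404, 1337 and 1278 without clf-28 roots replicates 1, 2 and 3, and 927 and 1009 without clf-28 shoots replicates 1 and 2. Photosystem members had a more negative contrast in clf-28 for 17 of 32, and for 20 of 32 without WT roots replicate 1. LHCB1.5 stood at 29.2, 37.9 and 40.2 FPKM in clf-28 roots against 221, 134 and 101.4 FPKM in WT roots. It stood at 17355 and 17622 FPKM in the clf-28 shoots libraries used. So the clf-28 roots lay below all 3 WT root libraries, and the shoots inside the WT range. HAK5, a potassium transporter induced by starvation, stood at 21.7, 20.9 and 21.3 FPKM in clf-28 roots against 2.42, 1.68 and 1.61 FPKM in WT roots, and its contrast was higher by 2.96 ± 0.17 (adjusted p = 2.13e-05). bHLH100, of the iron response, stood at 2.86, 3.57 and 3.34 FPKM in clf-28 roots and 86.3 and 79.7 FPKM in the clf-28 shoots libraries used, beside 11.8, 19.9 and 17.5 FPKM in roots and 31.0, 43.7 and 37.8 FPKM in shoots in WT, and its contrast differed by -3.14 ± 0.28 (adjusted p = 0.000228). Root hair members had a higher contrast in clf-28 for 4 of 15 and aliphatic glucosinolate members a lower one for 5 of 11. The latter count was 8 without WT roots replicate 1 and 10 without both WT replicate 1 libraries.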

How the data were processed

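RNA-seq of total RNA from 24 libraries was deposited by the authors as 1 table of FPKM values with a status per value; per the labels, libraries were strand-specific and single-end. Per the submitters' processing notes, TopHat, Cufflinks and Cuffdiff were used with TAIR10; their versions and settings are not given in the sources used here. FPKM depends on the composition of a library, and read depth is unknown, so no counting interval is given. Another 48 deposited columns of confidence bounds were not used.

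Lines at 1 FPKM or more in at least 3 of the 6 libraries were tested with limma 3.58.1 in R 4.3.3 on log2(FPKM + 1), with an intensity trend and a robust prior, two-sided, with Benjamini-Hochberg adjustment over all 20029 lines and a threshold of 0.05. A pseudocount of 1 understates the fold of low genes. In the 6 libraries 40 values in 28 lines had a status other than OK; all were listed at 0, and these lines were left out. The same model was fitted to the 12 WT libraries and, for the difference between genotypes, to 11 roots and shoots libraries without the one labelled clf-28 shoots replicate 3. Where a group had 2 libraries, as there, the level of 1 FPKM had to be reached in 2 libraries only. In simulated data of 20029 lines, 200 lines with a mean log2(FPKM + 1) above 2 were changed. The comparison of roots with shoots recovered 51% of 2-fold and 83% of 4-fold changes there, and 9 of 143 calls were unchanged lines. No line of low mean was changed, and far fewer lines were changed than passed the test in the data. These shares therefore do not describe low genes or the calls of the comparison itself.

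The members and the 27 gene lists were chosen with earlier results of these data known. Of 439 list entries 414 were used; the others were merged, spread over several lines, not quantified in every library or not in the annotation. Genes named are list members, the 12 largest differences each way with groups that do not overlap, the 6 highest in each organ, the 5 with the smallest p for the genotype difference, and the longest runs of neighbours. Gene positions come from the TAIR10.1 annotation and promoters from RefSeq. Alternatives covered the pseudocount, filter, scaling, libraries left out, libraries in the fit, variance prior and replicate block.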

Additional observations from a re-analysis of the deposited data

Results flagged for a closer look

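For 5 genes the root to shoot difference was not the same in clf-28 as in WT, by the interaction term of limma on 11 libraries, with Benjamini-Hochberg adjustment over 21087 lines. These are the 5 smallest p-values of that test among genes with a symbol. AG, the floral homeotic MADS-box gene, gave an interaction of -3.5, with 48.0 and 40.0 FPKM in the clf-28 shoots libraries used and at most 0.408 FPKM in WT shoots. SWEET10, a sugar transporter gene, gave -2.95, with 11.2 and 10.7 FPKM in those clf-28 shoots and less than 1 FPKM in the other 9 libraries. U49.1 gave -4.64, with 23.2 and 24.9 FPKM in those clf-28 shoots and listed at 0 in all WT roots, WT shoots and clf-28 roots libraries. SWEET10 and U49.1 entered the test only through the 2 clf-28 shoots libraries in which they are high, and GA2OX7 only through clf-28 roots, so these 3 differences are descriptions; the p of U49.1 rests on 9 values of 0 with no spread. BGLU24, a beta-glucosidase gene, gave 3.62, with 62.3, 64.2 and 61.0 FPKM in clf-28 roots against 1.75, 2.53 and 2.09 FPKM in WT roots. GA2OX7, a gibberellin oxidase gene, gave 2.78, with 7.15, 7.35 and 6.75 FPKM in clf-28 roots and at most 0.0419 FPKM in WT roots.

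The library labelled clf-28 shoots replicate 3, not in that fit, had 21.2 FPKM of AG, 112 FPKM of SWEET10 and U49.1 listed at 0. The values were 41.9, 10.6 and 48.1 FPKM in what is labelled clf-28 siliques replicate 3, so each of these 2 libraries stood apart from the others of its label for these genes.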

How the results depend on the processing

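Over its alternatives the comparison of roots with shoots called between 10572 and 15338 lines, and between 10572 and 13792 when 1 library was left out. On rescaled nuclear sums 10922 lines were called higher in roots and 246 called lines turned direction; among genes named, 29 of 190 called lost the call under 1 or more alternatives, 15 of 18 not called were called under 1 or more, and 3 turned on these sums: FAR1 differed by 0.03, PHYA by 0.12 and EMF2 by 0.16. The count above each other WT organ was 3058 to 3705 for roots and 1118 to 1733 for shoots with any 1 of the 12 libraries left out, and 2673 for shoots without the 4 replicate 1 libraries. The count for the genotype difference was 553 with all 12 libraries as labelled, 5895 without both WT replicate 1 libraries, and 927 to 4346 with 1 library left out, so its size rests on single libraries; the cause was not tested. With lines at 1 FPKM in at least 3 of the 11 libraries it was 2126. That filter, and leaving out inflorescences and siliques libraries, were chosen after seeing the data.

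Replicate numbers are shared between organs. Deviations of same-numbered libraries correlated at 0.203, 0.176 and 0.0922 across lines, and the numbers were not taken to pair the samples. With the replicate block 12211 lines differed between roots and shoots, 3568 stood above the other organs in roots and 1662 in shoots, and 1974 differed with genotype. Read depth is unknown, so how far it limits low genes cannot be given.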
